A study of Homo sapiens with 6 samples.

Results

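SOX genes encode transcription factors with an HMG box, the domain that binds DNA and bends it. A set of 10 was followed here in BT549, a human cell line from a basal-like breast cancer of mesenchymal type: SOX2, SOX3, SOX4, SOX5, SOX6, SOX9, SOX11, SOX12, SOX13 and SOX15. They are 10 of the 58735 genes in the count table, and all 10 were found there by symbol. They were chosen by family, and the family was selected on the measured difference in counts between AS1842856 and DMSO, in which SOX3 was among the genes that fell most. Their levels and differences between the groups are therefore a description, and no p-value is given for any of them.

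The study asked which genes depend on the forkhead factor FOXO1 in this line. AS1842856 is a small molecule that blocks the binding of FOXO1 to DNA. The paper proposes that it modulates FOXO1 rather than only inhibiting it. RNA-Seq was run on 3 libraries of BT549 cells given DMSO, the solvent, as the control and on 3 libraries of cells given AS1842856 at 200 nM for 48 h. The written methods give a dose of 1 μM where the sample labels give 200 nM, so the dose is not settled, and the cells all came from 1 line at 1 time point.

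SOX proteins are sorted into subgroups by the likeness of their HMG boxes, and they usually act with a partner factor that binds beside them. SOX2 and SOX3 (subgroup B1) keep neural progenitors undifferentiated. SOX4, SOX11 and SOX12 (subgroup C) activate genes in embryonic progenitors and are often high in tumours. SOX5, SOX6 and SOX13 (subgroup D) have no activation domain of their own and pair with each other through a coiled coil. SOX9 (subgroup E) directs cartilage formation and marks progenitors in several epithelia, the breast included, and SOX15 (subgroup G) is known from muscle progenitors.

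In BT549 cells SOX3 fell 37.4-fold with AS1842856, from 11.4 ± 0.821 to 0.301 ± 0.0518 CPM (counts per 1000000 counts of the library; mean ± SD, n = 3 libraries a group). SOX13 fell 3.01-fold. In the other direction SOX5 rose 19.0-fold from near the lower limit of detection, and SOX4, already well expressed, rose 4.12-fold. SOX9 fell 1.14-fold and SOX12 rose 1.21-fold. SOX11 and SOX15 did not pass the test across all genes, and SOX2 and SOX6 had too few counts to be tested.

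**Figure D1:**
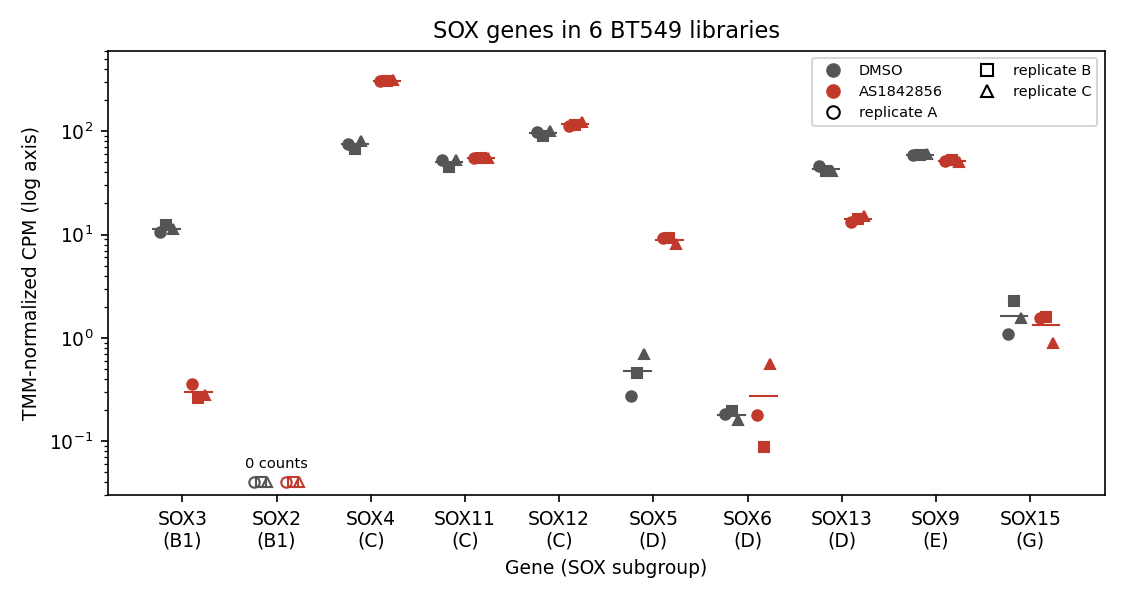
CPM of the 10 SOX genes, by subgroup, on a log axis. Each point is 1 library, its shape the replicate letter, and the short lines are group means; SOX2, with 0 counts in all 6 libraries, is drawn with open points at the bottom. The SOX3 and SOX13 points sit lower with AS1842856 and the SOX4 and SOX5 points higher, each with a gap between the groups.

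The libraries held 15289500 to 22981832 counts, so that the floor of 3 counts corresponds to 0.131 to 0.196 CPM. This floor covers counting error only. Of the 14338 genes with enough counts to be tested, 56.0% passed an adjusted p of 0.05 in edgeR's quasi-likelihood test, 27.6% higher and 28.4% lower with AS1842856, and 2.90% passed with a log2 fold change of at least 2 in size. The 6 markers fixed as present in such cells (VIM, FN1, CDH2, ZEB1, SPARC and CD44) summed to 3964 to 4095 CPM in the DMSO libraries and 3715 to 3775 with AS1842856; all 6 passed, FN1 and ZEB1 as higher and the others as lower. ESR1, PGR, CDH1 and EPCAM together came to at most 0.538 CPM. Of 4 neuronal markers, SNAP25 and SYP passed as higher, the sum went from 6.74 to 8.07 CPM to 19.7 to 22.5 CPM, and RBFOX3 was near 0. Of 5 leukocyte markers only PTPRC was tested and passed as higher, the sum went from 1.13 to 2.15 CPM to 3.48 to 4.65 CPM, and CD3E was at 0. Of 5 neural crest and glial markers only MBP was tested and passed as lower, the sum went from 13.1 to 14.2 CPM to 8.88 to 10.2 CPM, and S100B was at 0. The part of these marker changes in the SOX values was not tested. In such bulk RNA, fewer cells that express a gene and less RNA per cell cannot be told apart.

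The stretches upstream of SOX3, SOX5, SOX13 and SOX12 are shown because 3 of these genes differed most between the groups, apart from SOX4, and because the SOX12 window was the one among them that held a FOXO motif. They are the parts of the RefSeq promoter windows (assembly GRCh38.p14) that precede the first annotated exon, given 5′ to 3′ on the strand of the gene. Capitals mark matches on either strand to 4 motifs searched in the 250 bases before each start: FOXO (GTAAACA, or TGTTTAC on the other strand), TCF/LEF (CTTTGAT, or ATCAAAG), SOX (ATTGTT, or AACAAT) and the CCAAT box (CCAAT, or ATTGG). The ends of some of these motifs can overlap each other.
SOX3, chrX:140505117-140505319, minus strand: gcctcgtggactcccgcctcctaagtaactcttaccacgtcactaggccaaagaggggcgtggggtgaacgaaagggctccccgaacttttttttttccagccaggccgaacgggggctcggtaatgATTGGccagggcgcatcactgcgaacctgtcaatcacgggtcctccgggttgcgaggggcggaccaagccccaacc
SOX5, chr12:24562545-24562741, minus strand: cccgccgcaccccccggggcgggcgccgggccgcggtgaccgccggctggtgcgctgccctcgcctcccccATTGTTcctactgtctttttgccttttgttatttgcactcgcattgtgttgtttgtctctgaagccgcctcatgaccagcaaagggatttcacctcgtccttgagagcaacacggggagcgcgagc
SOX13, chr1:204072865-204073114, plus strand: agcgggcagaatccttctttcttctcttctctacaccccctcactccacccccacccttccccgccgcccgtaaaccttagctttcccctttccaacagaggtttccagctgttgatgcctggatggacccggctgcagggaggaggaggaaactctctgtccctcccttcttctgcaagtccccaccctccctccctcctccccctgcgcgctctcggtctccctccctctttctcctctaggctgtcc
SOX12, chr20:325302-325551, plus strand: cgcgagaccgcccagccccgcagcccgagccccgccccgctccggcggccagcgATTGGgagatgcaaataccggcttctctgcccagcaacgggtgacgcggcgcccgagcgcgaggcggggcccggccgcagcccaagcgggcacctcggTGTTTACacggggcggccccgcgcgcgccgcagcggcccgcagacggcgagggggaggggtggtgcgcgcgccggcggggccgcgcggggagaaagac

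Distances here count back from the end of each window of 250 bases. The last 47 bases of the SOX3 window and the last 53 of the SOX5 window lay in an annotated exon and are not printed. The SOX12 window ended at 325551, before the annotated start of that gene at 325595. The SOX3 window held 1 CCAAT box, starting at 123 bases, and none of the other 3 motifs. The SOX5 window held 1 SOX motif, at 179 bases. The SOX12 window held 1 FOXO motif, at 98 bases, and 1 CCAAT box, at 196 bases, and the SOX13 window held none of the 4. SOX6 had 5 windows in the table, and the fifth of them also held 1 FOXO motif, at 183 bases, with 2 SOX motifs. Its windows 2 and 4 held 1 SOX motif each, and its windows 2, 3 and 4 held 1 CCAAT box each. Windows were found for 7 of the 10 genes; that of SOX4, which lay inside its annotated exon and is not printed, held 4 CCAAT boxes. Among all 35116 RefSeq windows, 2.98% held the FOXO motif, 2.26% the TCF/LEF motif, 8.98% the SOX motif and 32.0% the CCAAT box. These matches describe the letters and do not show binding.

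SOX3 (ENSG00000134595) is a gene of 1 exon on chromosome X, chrX:140502985-140505116 on the minus strand in GRCh38, and no other annotated gene overlapped it. Its counts were 233, 188 and 209 in DMSO replicates A, B and C, which is 10.6, 12.2 and 11.3 CPM. With AS1842856 they were 6, 6 and 5, or 0.360, 0.263 and 0.280 CPM. Every AS1842856 library was above the floor of 3 counts, and the highest of them was far below the lowest DMSO library. The log2 fold change was -5.22 ± 0.24 (SE), with a 95% interval of -5.70 to -4.75. SOX3 entered the test only through its DMSO libraries, so that a gene like it had to differ to be counted at all. It stood 7th from the lowest of the 14338 log2 fold changes. Among the 7270 genes that passed, did not overlap between groups and averaged at least 1 CPM, only MYO7B (-6.47) and VSIR (-5.48) had lower log2 fold changes, and EVI2B came next at -4.60.

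SOX2 (ENSG00000181449), also of subgroup B1 and a core factor of pluripotent cells, had 0 counts in all 6 libraries. At these depths that allows up to 0.131 to 0.196 CPM in a library. The overlapping transcript SOX2-OT, whose gene body contains SOX2, had 1 count in DMSO replicate C, 1 in AS1842856 replicate B and 0 elsewhere. SOX1, the remaining B1 gene, had 0 counts too, so that SOX3 was the B1 gene detected in these cells.

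SOX4 (ENSG00000124766; chr6:21592768-21598619, plus strand, 1 exon) became the SOX gene with the highest level per length after AS1842856, as the FPKM values below show. It measured 75.9, 67.5 and 80.2 CPM in the DMSO libraries and 305.3, 308.1 and 309.6 CPM with AS1842856. The treated libraries lay close together and all above the controls. The log2 fold change was 2.04 ± 0.04 (SE; 95% interval 1.96 to 2.12), from 74.5 ± 6.50 to 307.7 ± 2.16 CPM. It was 193rd from the highest among all genes tested.

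SOX11 and SOX12, which share much of their function with SOX4 in embryos, did not follow it in size. SOX12 (ENSG00000177732; chr20:325595-330224) measured 98.3, 89.3 and 99.9 CPM in DMSO and 113.5, 114.0 and 122.5 CPM with AS1842856, a log2 fold change of 0.28 ± 0.04 (SE). Its groups did not overlap, and it passed as higher by 1.21-fold. SOX11 (ENSG00000176887; chr2:5692667-5701385) measured 52.9, 45.5 and 52.2 CPM in DMSO and 54.6, 54.4 and 54.5 CPM with AS1842856. Its libraries also did not overlap, yet the log2 fold change of 0.11 ± 0.06 (SE; 95% interval before adjustment 0.00 to 0.23) missed the threshold after adjustment. It was 0.15 and passed without DMSO replicate A, and was 0.048 without DMSO replicate B, where it did not pass. An increase of the size seen for SOX4 lay outside the intervals of both genes.

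SOX5 (ENSG00000134532) spans 1033045 bases of chromosome 12 (chr12:23529500-24562544, minus strand). It had 6, 7 and 13 counts in the DMSO libraries and 156, 213 and 145 with AS1842856, or 0.273, 0.456 and 0.700 CPM against 9.36, 9.33 and 8.13 CPM. The DMSO libraries were low but all above the floor, and the groups were far apart. The log2 fold change was 4.24 ± 0.24 (SE; 95% interval 3.77 to 4.71), the 40th from the highest of all genes tested. SOX5 entered the test only through its AS1842856 libraries, the mirror of SOX3. The antisense gene SOX5-AS1 had 0 counts.

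SOX13 (ENSG00000143842; chr1:204073115-204127743, plus strand) moved the other way from SOX5. It measured 45.6, 41.4 and 41.6 CPM in DMSO and 13.3, 14.2 and 15.3 CPM with AS1842856, with no overlap. The log2 fold change was -1.59 ± 0.08 (SE; 95% interval -1.74 to -1.43). SOX6 (ENSG00000110693), the usual partner of SOX5 in cartilage, had 4, 3 and 3 counts in DMSO and 3, 2 and 10 with AS1842856 and was not tested. Its exons share 219 bases with those of C11orf58 on the opposite strand, which averaged 2346 counts, and since the use of strand in counting is not given, even these few counts are uncertain. In subgroup D, then, SOX13 fell while SOX5 rose, and SOX6 stayed near the floor.

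SOX9 (ENSG00000125398; chr17:72121020-72126420, plus strand) changed little. It measured 59.2, 58.3 and 59.5 CPM in DMSO and 51.0, 53.2 and 50.5 CPM with AS1842856. The groups were separate and narrow, and the log2 fold change was -0.19 ± 0.06 (SE), a fall of 1.14-fold. SOX15 (ENSG00000129194; chr17:7588178-7590170, minus strand) measured 1.09, 2.28 and 1.56 CPM in DMSO and 1.56, 1.58 and 0.897 CPM with AS1842856, with overlapping groups. Its log2 fold change was -0.24 ± 0.32 (SE; 95% interval -0.88 to 0.39), an interval that holds changes in both directions, and it became 0.036 without DMSO replicate B. SOX15 shares 15 exon bases with MPDU1 on the opposite strand, which averaged 1366 counts against 27.7 for SOX15, so its counts are uncertain.

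Of the 8 SOX genes that passed the filter on low counts, 6 passed the test, 3 higher and 3 lower, beside 56.0% of all genes. The libraries of 7 did not overlap between the groups, beside 59.9% of all genes, and 4 passed with a log2 fold change of at least 1 in size, beside 10.6%. These counts come from the contrast that chose the genes, so nothing is read from them. The median log2 fold change of all genes was 0.00, and other scalings moved it by at most 0.02. SOX3, SOX4, SOX5 and SOX13 kept their directions under each scaling tried. All of these scalings are relative within a library, so a change in total RNA per cell would not show in them.

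**Figure D2:**
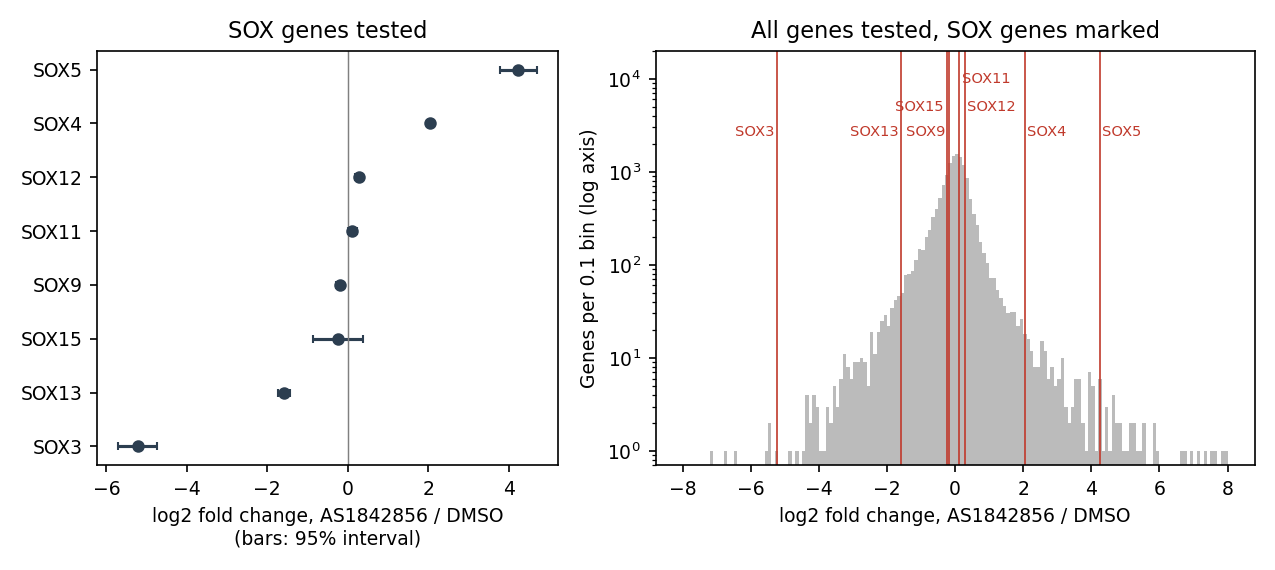
Left, log2 fold change (AS1842856 over DMSO) of the 8 SOX genes tested, with 95% intervals from the fit over all genes. Right, the distribution of log2 fold changes over all 14338 genes tested, in bins of 0.1 with a log count axis and the SOX genes as red lines; SOX3 and SOX5 lie in the tails, and SOX9, SOX11, SOX12 and SOX15 near the centre.

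The deposited FPKM values, which are divided by gene length, put the SOX genes on 1 scale of level. In DMSO the order was SOX12 (20.6 ± 1.26 FPKM), SOX9 (14.9 ± 0.184), SOX4 (12.7 ± 1.12), then SOX13 (5.74 ± 0.325), SOX11 (5.72 ± 0.471) and SOX3 (5.30 ± 0.375), then SOX15 (1.06 ± 0.383), SOX5 and SOX6. SOX13, SOX11 and SOX3 could not be ordered, because the ranges of neighbours overlapped, and every other neighbouring pair was separate. On this scale SOX3 was thus as high as SOX11 and SOX13 in control cells, although its short transcript gave it fewer counts. The FPKM values were close to CPM per kilobase of all annotated exons of a gene. That length is 7420 bases over 10 transcripts for SOX13 and 2132 bases over 1 transcript for SOX3. Genes with several transcripts can therefore read low on this scale.

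With AS1842856 the order became SOX4 (52.3 ± 0.307 FPKM), SOX12 (25.0 ± 1.06), SOX9 (13.0 ± 0.365), SOX11 (6.21 ± 0.0131), SOX13 (1.91 ± 0.127), SOX15 (0.867 ± 0.251), SOX5 (0.851 ± 0.0675), SOX3 (0.140 ± 0.0243) and SOX6. SOX15 and SOX5 overlapped in range. SOX4 went from the third place to the first, and SOX3, which shared its place with SOX11 and SOX13 in DMSO, came below SOX15 and SOX5. Even after its 19.0-fold rise, SOX5 stayed below 1 FPKM, on a length that joins the exons of 22 transcripts.

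**Figure D3:**
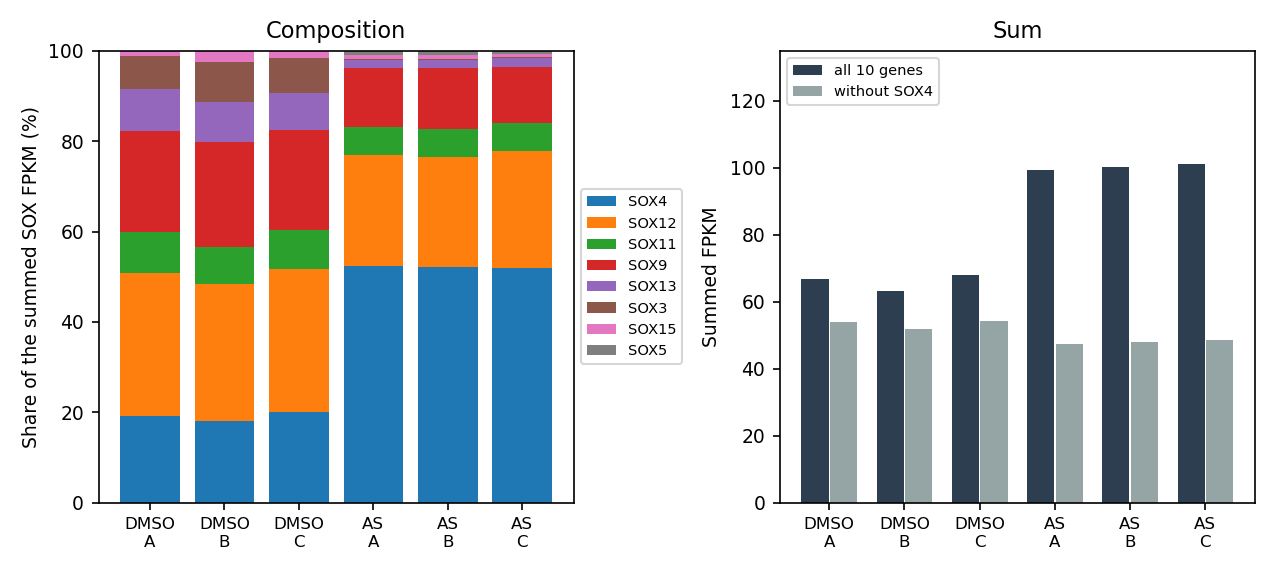
Left, the share of each SOX gene in the summed FPKM of the 10 genes, as stacked bars for each library. Right, the summed FPKM with and without SOX4; SOX4 makes up 18.1 to 20.1% of the sum in the DMSO libraries and 51.9 to 52.3% with AS1842856, and the sum without SOX4 lies a little lower with AS1842856.

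As a share of the summed FPKM of the 10 genes, SOX4 went from 19.2 ± 0.988% to 52.1 ± 0.216%. SOX3 made up 8.05 ± 0.852% of the sum in DMSO and 0.140 ± 0.0255% with AS1842856, and SOX13 went from 8.70% to 1.90%. The 3 genes of subgroup C together went from 59.0 ± 2.09% to 83.3 ± 0.618%. Within that subgroup only SOX4 rose in share. SOX12 went from 31.15% to 24.96% and SOX11 from 8.66% to 6.19%. The sum itself went from 66.0 ± 2.50 to 100.3 ± 0.987 FPKM, and without SOX4 from 53.4 ± 1.40 to 48.1 ± 0.686 FPKM. The larger sum with AS1842856 was therefore carried by SOX4.

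The tested genes whose profile over the 6 libraries was most like that of SOX3 were found by Euclidean distance between log2 CPM values centred on each gene's mean. They were RFLNA, which binds the actin crosslinker filamin (distance 0.565), PLEKHA6, which has a pleckstrin homology domain (0.984), ATP2B2, a calcium pump of the plasma membrane (1.03), MEGF6, which has EGF-like repeats (1.12), and NTN4, a secreted netrin (1.14). Their log2 fold changes were -4.46, -4.36, -4.36, -4.01 and -4.02. RFLNA, which had many more counts than SOX3, went from 95.7 to 4.38 CPM. All 5 genes were picked for their likeness to SOX3, whose own log2 fold change was -5.22, so their falls follow from the choice. The distance depends on the prior count added before the log: with 0.5 in place of 2, RFLNA and PLEKHA6 were the 2 genes of these 5 that remained, joined by RTL3, C11orf86 and NRXN3. Like SOX3, the genes PLEKHA6, ATP2B2, RTL3, C11orf86 and NRXN3 entered the test only through their DMSO libraries.

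**Figure D4:**
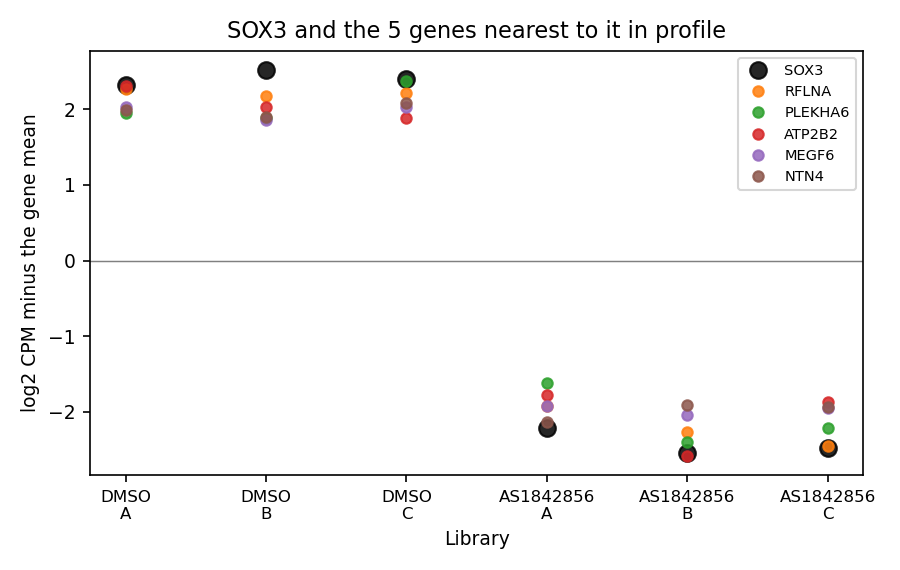
Log2 CPM (prior count 2) minus the gene's mean over the 6 libraries, for SOX3 (large black points) and the 5 genes nearest to it. In each DMSO library all 6 genes lie above their mean and in each AS1842856 library below it, with SOX3 at or near the outer edge. The 5 genes were picked by this likeness.

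Genes with any part within 500 kb of the 4 SOX genes that moved most were examined, a window chosen after the values were seen. Near SOX4 lies CASC15, a long noncoding RNA gene whose start is 72.0 kb further along. It had 0, 2 and 8 counts in DMSO and 65, 80 and 51 with AS1842856, a log2 fold change of 4.20 ± 0.40 (SE), and passed as higher. It entered the test only through the AS1842856 libraries. The other tested neighbour, CDKAL1, had 0.11 and did not pass. SOX13 had 8 tested neighbours, of which 1 passed as higher and 5 as lower, beside 27.6% and 28.4% of all genes. Of these PLEKHA6, with its start at 304.6 kb and also among the genes most like SOX3, went from 13.1 ± 2.54 to 0.648 ± 0.222 CPM (log2 fold change -4.36 ± 0.20, SE), and ETNK2 fell by 1.09 on the log2 scale. PLEKHA6 entered the test only through its DMSO libraries. Near SOX3, LINC00632 (-0.69) and SPANXB1 (-0.39) passed as lower by far less than SOX3 itself. Near SOX5, BCAT1 passed as higher at 0.12.

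**Figure D5:**
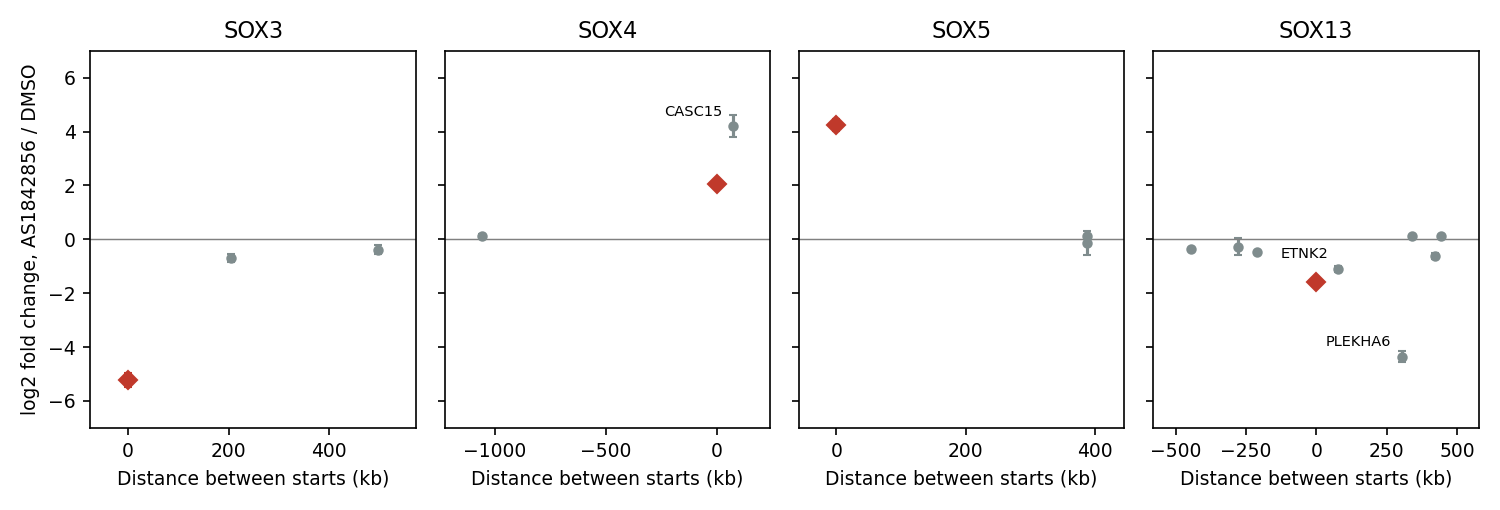
Log2 fold change (AS1842856 over DMSO, bars SE) of tested genes with any part within 500 kb of SOX3, SOX4, SOX5 or SOX13. The horizontal axis gives the distance between gene starts in kb along the chromosome. Red diamonds are the SOX genes. CASC15 lies with SOX4 above 0, and PLEKHA6 and ETNK2 lie with SOX13 below 0. The neighbours of SOX3 lie below 0 (-0.69 and -0.39), and those of SOX5 lie near 0.

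The other SOX genes on the autosomes were low. SOX7, an endodermal and endothelial factor, was the 1 of 9 that could be tested, with 23, 30 and 36 counts in DMSO and 25, 21 and 30 with AS1842856, and it did not pass (log2 fold change -0.27 ± 0.32, SE). SOX8, a relative of SOX9, had 4, 1 and 1 counts against 7, 15 and 5, and SOX21, which opposes the B1 factors, had 2, 0 and 3 against 3, 9 and 8. SOX10, SOX18 and SOX30 had at most 8 counts in any library, and SOX1, SOX14 and SOX17 had 0 in all. None of these 9 was thus at a level near that of SOX3 in DMSO.

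Some factors pair with SOX proteins on DNA or act as their corepressors. Of 13 listed, 6 were tested, and 1 passed as higher and 4 as lower, beside 27.6% and 28.4% of all genes, and the median log2 fold change was -0.31 beside 0.00 for all genes. PAX6, the eye and brain factor that works with SOX2, went from 22.3 ± 1.20 to 37.7 ± 2.68 CPM (0.76 ± 0.07, SE). The corepressors CTBP2 (-0.61) and CTBP1 (-0.16) and the POU factor POU3F2 (-0.54) passed as lower.

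Genes of neural progenitors linked to B1 factors gave 2 higher and 2 lower of 5 tested, from 14 listed, beside 56.0% of all genes passing in either direction, with a median of 0.02. PAX6, also on the list above, and the RNA-binding MSI2 (0.25) were higher, and NOTCH1 (-0.58) and CDH2 (-0.19) were lower. NES and PROM1 had at most 3 counts in any library. Of 5 genes reported downstream of SOX4 and SOX11, 4 were tested. TUBB3, a neuronal tubulin, went from 7.59 ± 0.979 to 12.6 ± 1.84 CPM (0.72 ± 0.12, SE) and passed as higher, EZH2 (-0.13) passed as lower, and TEAD2 (0.03) and MAP2 (-0.30) did not pass, with a median of -0.05.

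Of 18 listed cartilage genes bound by SOX9 together with SOX5 and SOX6, 5 had 0 counts in all libraries. Of the 8 tested, 1 passed as higher and 2 passed as lower, which is 37.5% beside 56.0% of all genes, and the median log2 fold change was -0.23. COL9A2, a chain of type IX collagen, went from 7.19 ± 0.652 to 36.7 ± 0.886 CPM (2.34 ± 0.09, SE). COL27A1, a fibrillar collagen, went from 14.5 ± 0.310 to 4.32 ± 1.16 CPM (-1.77 ± 0.13, SE), and MATN1, a matrilin, had 23, 10 and 11 counts in DMSO and 7, 6 and 2 with AS1842856 (-1.55 ± 0.52, SE), so that it entered the test only through its DMSO libraries. MATN3 had 0.34 and did not pass. COL2A1 had 1 count in all and ACAN had 0, so the main targets of SOX9 in cartilage were not detectable at this depth.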

How the data were processed

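RNA-Seq of BT549 cells gave 6 libraries, 3 a group, assigned by the treatment in the sample labels. The authors deposited raw counts per gene, which were used without change, and FPKM values, which correct counts for the length of the gene and the depth of the library. The written methods name STAR for mapping; the submitters' processing notes name CASAVA, Bowtie 0.12.2 and GRCh38. The counting tool and the use of strand are not given in the sources used here. All 58735 gene identifiers matched GENCODE release 29 (Ensembl 94), which gave positions and exons. FPKM was listed for 25015 genes.

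Genes were filtered by filterByExpr (minimum count 10, minimum total 15), which left 14338 and removed 13170 that had a count. Counts were scaled by TMM and tested with edgeR 4.0.16 in R 4.3.3 (glmQLFit with robust estimation, glmQLFTest), with Benjamini-Hochberg adjustment over all genes tested and a threshold of 0.05. SOX rows were taken from this fit. The common biological coefficient of variation was 0.0374. The methods call the libraries biological replicates without saying how they were made, so the spread may be partly technical. With 3 against 3, an exact permutation test cannot go below a two-sided p of 0.1, so none was used. DESeq2 1.42.0 on the counts and limma 3.58.1 on log2(FPKM + pseudocount), other filters and scalings, the replicate block and leaving out each library were tried. Named genes were the 10 SOX genes, the other autosomal SOX genes, overlapping genes, the 5 genes most like SOX3, and the 2 highest and 2 lowest tested genes of each list; neighbours, the low genes cited and the genes ranked near SOX3 were named after their values were seen. Some marker genes are not reported here by name. The SOX genes and all lists were chosen with earlier results of these data known.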

Additional observations from a re-analysis of the deposited data

How the results depend on the processing

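SOX3, SOX4, SOX5, SOX9, SOX12 and SOX13 kept their direction and passed under every alternative that tested them: other filters, DESeq2 with its size factors, limma on FPKM, the replicate block and leaving out each library. SOX5 was not tested in the limma fits with a filter of mean FPKM 0.5. All these fits used the libraries by which the family was chosen, so they describe dependence on the processing only. Log2 fold changes ranged from -5.26 to -2.46 for SOX3 and from 0.82 to 4.26 for SOX5 over the fits that used all 6 libraries, the ends nearest 0 coming from log2(FPKM + 1), whose pseudocount shrinks low genes. Leaving out each library gave -5.36 to -5.12 for SOX3, 1.98 to 2.09 for SOX4, 3.91 to 4.65 for SOX5 and -1.64 to -1.54 for SOX13. For SOX15 leaving out each library gave -0.49 to 0.036, the latter, reversed in sign, without DMSO replicate B. For SOX11 leaving out each library gave 0.048 to 0.15, the lowest without DMSO replicate B; it passed without DMSO replicate A, where 7 SOX genes passed in place of 6. Of the 5 genes most like SOX3, 2 were shared with a prior count of 0.5. Requiring a log2 fold change of at least 1, chosen after seeing the data, left 4 SOX genes.

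Replicate letters did not pair the samples: correlations of deviations between same-lettered libraries were -0.01, 0.01 and -0.04. With the replicate block, 7862 genes passed in place of 8029, and 6 SOX genes in both. DESeq2 called 6804 genes. Differences of the size seen in SOX9 are read from few libraries, and SOX2, SOX6 and SOX15 are limited by depth.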

Other observations

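HMG-box genes outside the SOX family included some of the largest increases. Of 18 listed, 17 were tested, 6 passed as higher and 4 as lower, and the median log2 fold change was 0.07, beside 56.0% of all genes passing in either direction. TCF7, a partner of beta-catenin, had 427, 275 and 432 counts in DMSO and 8836, 12227 and 9905 with AS1842856 (log2 fold change 4.74 ± 0.05, SE). LEF1, its relative, had 35, 36 and 41 counts against 580, 837 and 550 (4.08 ± 0.13, SE). The paper reported both of these increases. By qRT-PCR it also reported less LEF1 and TCF7 after RNA interference against FOXO1 in BT549 and glioblastoma cells. Disruption of FOXO1 in the glioblastoma line gave the same direction. The RNA interference was read at shorter times than the 48 h of AS1842856 used here. What a loss of FOXO1 activity contributed to the increases with AS1842856 was not tested. HMGB2, a chromatin protein that is high in dividing cells, went from 299.9 to 148.1 CPM (-1.01 ± 0.04, SE), while its relative HMGB1 had 0.07 and did not pass. HBP1, a repressor, went from 18.5 ± 4.02 to 10.3 ± 0.462 CPM (-0.85 ± 0.11, SE).

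LIN28A, an RNA-binding protein of early embryonic cells, had 0 counts in the 3 DMSO libraries and 5, 6 and 4 with AS1842856. PAX2 had 0 counts in DMSO and 2, 2 and 7 with AS1842856. Both were too low to be tested and were singled out after their values were seen. SOX9-AS1, on the strand opposite SOX9, had 8, 8 and 6 counts in DMSO and 2, 1 and 3 with AS1842856, against 850 to 1300 counts of SOX9, and was not tested.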
